A study of Mus musculus with 8 samples.

Results

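Described here are 37 genes of mitosis and chromosome segregation, measured in brain of E12.5 *Cre+, Rest GTi/GTi* mouse embryos (Cre+ hereafter) and their controls. They were listed by name (mitotic kinases and cyclins, checkpoint, centromere, kinesin, spindle and condensin genes), and each was read on its probe set with the highest mean over the 8 arrays. All 37 of the listed genes had a probe set, out of 18193 genes on the array. No measured value entered the choice of the genes, but the list was drawn up with earlier results of these data known. All embryos, controls included, were homozygous for the inverted gene trap in *Rest*, a cassette that leaves splicing of *Rest* intact until Cre turns it round. The 4 *Cre+, Rest GTi/GTi* arrays come from embryos that also carried the *Nestin Cre* transgene, which acts in Nestin-positive neural progenitors and their descendants. The 4 control arrays come from *Rest GTi/GTi* littermates without Cre, and all are labelled as strain C57/BL6 and as biological replicates. Whether an array holds 1 embryo or several is not stated, and the effects of the Cre transgene and of *Rest* loss cannot be told apart.

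Mitosis begins when CDK1, bound to A- and B-type cyclins, is switched on. Condensin packs the chromosomes, the kinetochores built on centromeres attach them to a spindle driven by kinesins, and the spindle assembly checkpoint holds the cell until all are attached. The anaphase-promoting complex then destroys cyclins and securin, separase cuts cohesin, and the cell divides. Transcripts of most of these genes accumulate late in the cycle, in G2 and M phase. They are nearly absent from cells that have left the cycle, so in the embryonic brain they mark the dividing progenitors that line the ventricles and are low in neurons. In RNA of a whole tissue, fewer dividing cells and less of these RNAs per cell cannot be told apart.

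None of the 37 mitosis genes passed the test between Cre+ and control brain. In limma's test over all probe sets, 0 of 37 were called higher, against 0.214% of all genes, and 0 of 37 were called lower, against 0.011%. The smallest adjusted p among them was 0.80, and 0 of 37 reached an unadjusted p under 0.05, where 3.94% of all genes did so as higher and 3.03% as lower. For 0 of 37 were the 2 genotypes separated without overlap, which 2.44% of all genes were as higher and 2.12% as lower. The log2 fold changes ran from -0.23 for *Ncapg* to 0.11 for *Espl1*, with a median of -0.012 against -0.001 over all genes. A total of 25 genes lay below 0 and 12 above it, a split that depends on single arrays, as given further on. Standard errors were 0.08 to 0.16, and every 95% interval lay between -0.52 and 0.43, which corresponds to 0.697 to 1.34 times the control level on the scale used (normalized intensity plus 16). A p above the threshold does not show that the levels were the same, and changes within those intervals could not be detected with 4 arrays a genotype.

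**Figure D1:**
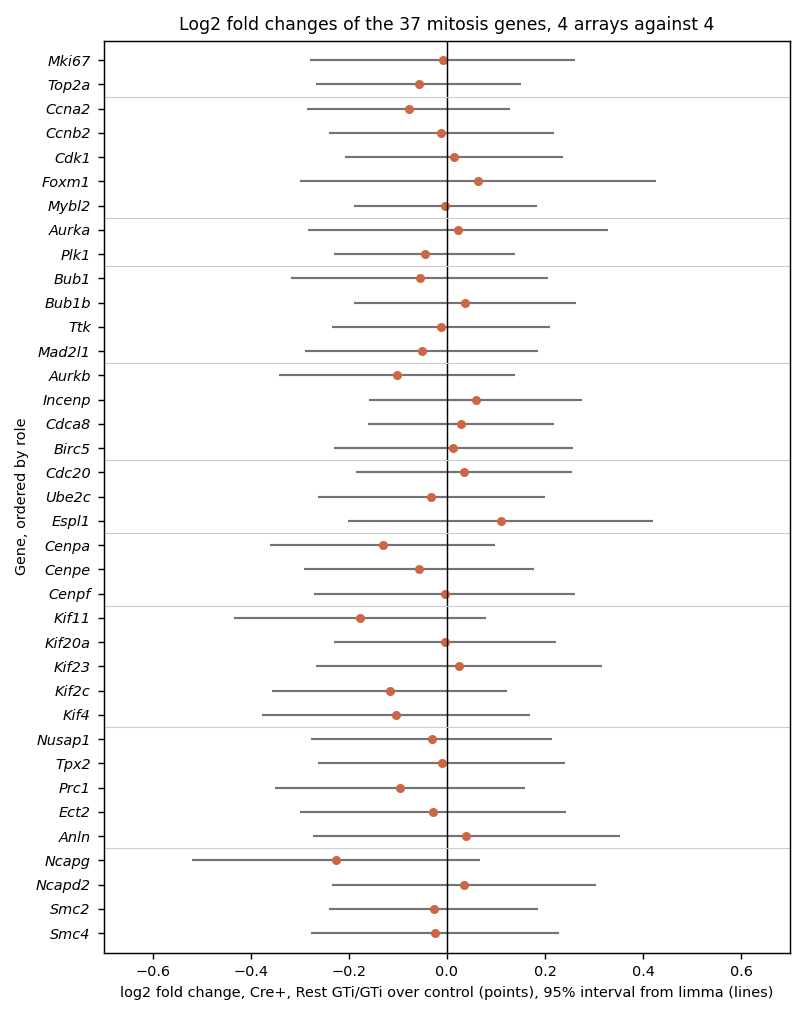
Log2 fold change of each of the 37 mitosis genes, *Cre+, Rest GTi/GTi* over control (points), with the 95% interval from limma (lines), genes ordered by role, 4 arrays a genotype. Every interval includes 0, and all lie between -0.52 and 0.43.

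The genes moved together between arrays of the same genotype. Relative to the control mean, the mean log2 value of the 37 genes was 0.21, -0.06, -0.23 and -0.04 in Cre+ replicates 1 to 4, against -0.08, 0.07, 0.04 and -0.04 on control replicates 1 to 4. The highest and the lowest of the 8 arrays were thus both Cre+, with all controls between them. On Cre+ replicate 1, 33 of 37 genes had the highest value of the 8 arrays, where 16.8% of all genes did. On replicate 3 of that genotype, 28 of 37 had the lowest value, where 11.9% of all genes did. All 37 of 37 genes read higher on replicate 1 than on replicate 3, by 0.16 to 0.68 on the log2 scale with a median of 0.415. The exceptions at the top were *Kif11* and *Ncapg*, highest on control replicate 3, *Prc1* on control replicate 2 and *Ect2* on control replicate 4.

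The spread between arrays was accordingly wider in Cre+ brain. The SD of the log2 values was larger there than in controls for 37 of 37 mitosis genes, against 58.0% of all genes. Its median was 0.187 in Cre+ and 0.095 in control brain, and over all genes with a mean intensity of at least 100 it was 0.118 and 0.097. The genes share the same 8 RNA samples, so these counts describe the arrays and are not independent of each other. As a description over 8 arrays, Pearson's r between a gene and the mean of the other members had a median of 0.88 (Spearman's rho 0.81) and ran from 0.26 for *Ect2* to 0.98. Without Cre+ replicates 1 and 3, the arrays farthest from the median, the median r over the other 6 was 0.69 (rho 0.60), and 35 of 37 were above 0. Within the 4 Cre+ arrays the median r was 0.95, and within the 4 controls it was 0.81. The common movement was thus seen in both genotypes, and over a narrower range in controls.

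**Figure D2:**
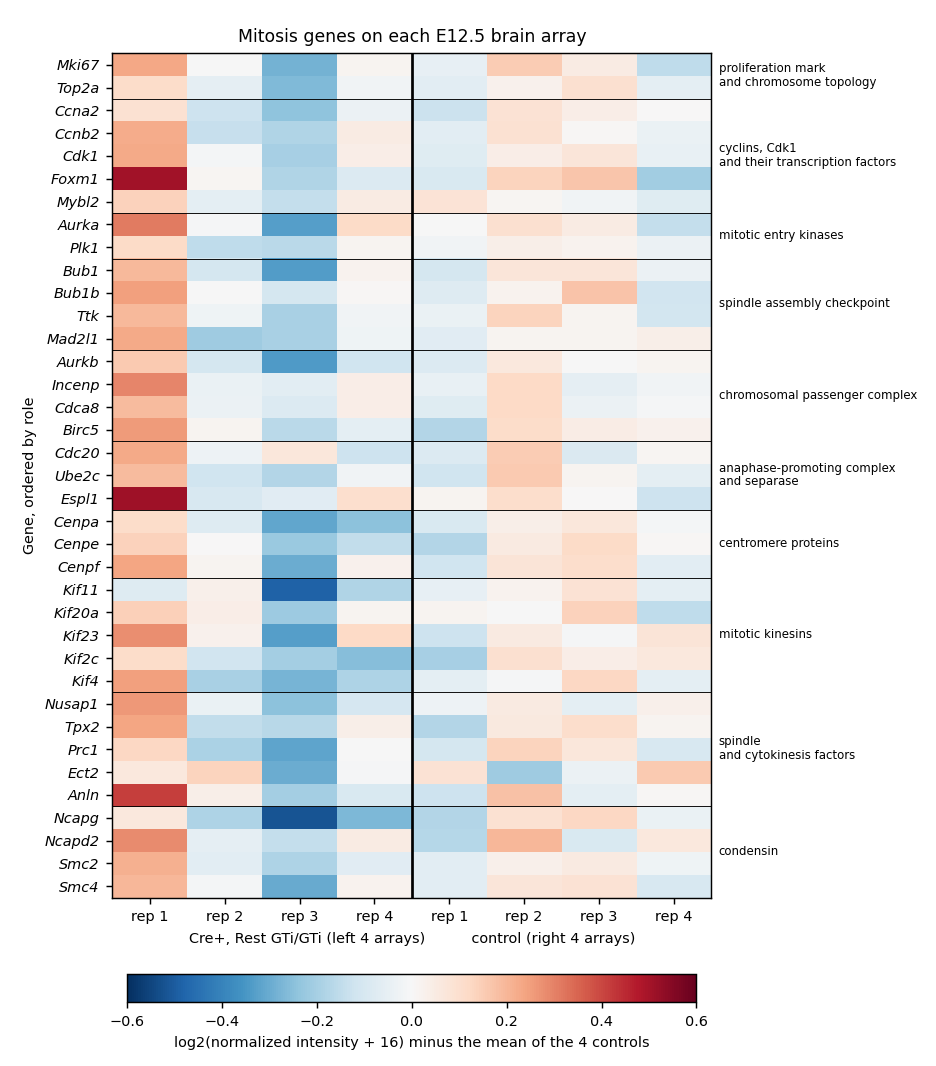
Log2(normalized intensity + 16) of the 37 mitosis genes (rows, ordered by role) on the 8 arrays (columns), minus the mean of the 4 controls (colour, red higher and blue lower). Cre+ replicates 1 to 4 stand on the left and control replicates 1 to 4 on the right, and the columns of Cre+ replicates 1 and 3 stand out as red and blue.

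*Mki67* encodes Ki-67, the protein that coats mitotic chromosomes and marks cycling cells. On the arrays it had normalized intensities of 3830.6, 3261.5, 2682.5 and 3298.5 in Cre+ replicates 1 to 4, against 3153.0, 3629.3, 3373.0 and 2938.2 on control replicates 1 to 4. The genotypes overlapped fully, with the extremes on Cre+ replicates 1 and 3, and the log2 fold change was -0.01 (limma, standard error or SE 0.12, 95% interval -0.28 to 0.26, adjusted p = 0.997). *Top2a*, the topoisomerase that untangles sister chromatids, read 4265.4, 3810.3, 3286.9 and 3887.9 in Cre+ brain, against 3785.0, 4025.9, 4219.1 and 3791.7 in controls. It had the same 2 extremes, and a log2 fold change of -0.06 (standard error 0.09).

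Among the cyclins, Cdk1 and their transcription factors, *Cdk1*, the kinase that drives entry into mitosis, read 2177.0, 1837.0, 1613.5 and 1909.0 in Cre+ brain, against 1762.8, 1909.0, 1954.2 and 1800.2 in controls. The control values lay inside the range of the Cre+ values, and the log2 fold change was 0.01 (95% interval -0.21 to 0.24). *Ccna2*, the cyclin A of S and G2 phase, read 2525.9, 2167.2, 1996.4 and 2308.9, against 2163.9, 2515.7, 2431.4 and 2368.7 in controls. Here Cre+ replicate 1 barely exceeded control replicate 2, and the log2 fold change was -0.08 (standard error 0.09). *Ccnb2*, a mitotic cyclin B, had a log2 fold change of -0.01 at 1328 ± 176 in Cre+ and 1332 ± 63.8 in control brain (SD, n = 4 each).

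*Foxm1* encodes the transcription factor that switches on many genes of G2 and M phase together with B-MYB, the product of *Mybl2*. *Foxm1* read 303.5, 211.1, 183.0 and 196.9 in Cre+ brain, against 195.4, 231.1, 236.8 and 179.1 in controls. Replicate 1 of Cre+ stood above the other 7 arrays, and the log2 fold change of 0.06 had the largest standard error of the 37 genes, 0.16. *Mybl2* averaged 147 ± 14.0 in Cre+ and 147 ± 7.46 in control brain (SD, n = 4 each), with a log2 fold change of -0.0031 (95% interval -0.19 to 0.18).

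For the kinases of mitotic entry, *Plk1*, which acts at centrosomes, kinetochores and in cytokinesis, had normalized intensities of 833.8, 691.7, 687.0 and 779.1 in Cre+ brain, against 759.1, 788.5, 782.4 and 750.2 in controls. The controls lay close together, with an SD of 18.3 against 71.2 in Cre+ brain, and the log2 fold change was -0.05 (standard error 0.08). *Aurka*, the centrosomal Aurora kinase, gave 0.02 (standard error 0.13), with 753.2 on Cre+ replicate 1 and 477.5 on replicate 3.

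The checkpoint genes gave log2 fold changes of -0.06 to 0.04, with 3 of 4 below 0. *Bub1*, a kinetochore kinase, read 1579.4, 1280.3, 1091.3 and 1399.0 in Cre+ brain, against 1278.4, 1449.3, 1449.8 and 1345.3 in controls. *Mad2l1* encodes MAD2, the inhibitor that holds back CDC20, and read 2167.2, 1593.8, 1614.6 and 1814.6, against 1762.3, 1867.7, 1873.1 and 1895.4 in controls. For *Mad2l1*, unlike most of the genes, the lowest array was Cre+ replicate 2, though replicate 3 lay close to it. *Bub1b*, which encodes the checkpoint protein BUBR1, and *Ttk*, the MPS1 kinase that starts checkpoint signalling, gave 0.04 and -0.01.

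In the chromosomal passenger complex, which corrects faulty attachments and later directs cytokinesis, 3 of 4 genes lay above 0. Its kinase gene *Aurkb* read 670.5, 556.1, 470.8 and 550.5 in Cre+ brain, against 566.2, 628.0, 599.1 and 607.4 in controls. Replicates 2 to 4 of Cre+ brain lay below every control and replicate 1 lay above every control, so that the log2 fold change was -0.10 (limma, SE 0.11, adjusted p = 0.911). *Aurkb*, *Incenp* and *Cdca8* are read here on probe sets whose names mark possible hybridization with other transcripts. The only other set of *Aurkb* has such a name too, and gave -0.01. On their brightest sets without that mark *Incenp* and *Cdca8* gave -0.07 and -0.01. Their remaining sets gave 0.01 to 0.13 for *Incenp* and 0.05 for *Cdca8*, so the direction of both depends on the probe set. The scaffold gene *Incenp* gave 0.06, the borealin gene *Cdca8* 0.03 and the survivin gene *Birc5* 0.01. *Cdca8* read 3080.7, 2629.9, 2541.7 and 2774.8 in Cre+ brain, against 2560.2, 2926.8, 2625.9 and 2681.2 in controls, and its genotypes overlapped.

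Genes of the exit from mitosis came next in the cycle. *Ube2c*, the ubiquitin-conjugating enzyme of the anaphase-promoting complex, read 5224.6, 4213.3, 4047.1 and 4506.2 in Cre+ brain, against 4213.3, 5111.2, 4629.9 and 4396.3 in controls. Its log2 fold change was -0.03 (95% interval -0.26 to 0.20). *Espl1*, which encodes separase, read 607.7, 394.0, 402.0 and 454.5, against 427.7, 456.6, 423.4 and 386.4 in controls. The positive log2 fold change of *Espl1* (0.11, limma, SE 0.14, adjusted p = 0.928) came from Cre+ replicate 1 alone, and without that array it was -0.02. *Cdc20*, the activator of the complex, gave 0.04, and its lowest array was Cre+ replicate 4, at 2717.4.

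All 3 centromere genes had log2 fold changes below 0. *Cenpa*, the histone H3 variant that marks the centromere, read 1832.8, 1606.6, 1367.3 and 1430.7 in Cre+ brain, against 1592.9, 1740.5, 1779.9 and 1686.7 in controls. Replicates 3 and 4 of Cre+ lay below every control while replicate 1 lay above every control, and the log2 fold change was -0.13 (limma, SE 0.10, adjusted p = 0.871). The kinetochore motor gene *Cenpe* and the kinetochore protein gene *Cenpf* gave -0.06 and -0.0049.

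Of the mitotic kinesins 4 of 5 lay below 0. *Kif11*, the motor that pushes spindle poles apart, read 887.1, 958.4, 666.2 and 826.4 in Cre+ brain, against 906.4, 951.2, 997.4 and 899.4 in controls. It departed from the usual order, with Cre+ replicate 1 below all controls and replicate 2 above 3 of them, and its log2 fold change was -0.18 (limma, SE 0.11, 95% interval -0.43 to 0.08, unadjusted p = 0.150 and adjusted p = 0.821). *Kif2c*, a kinesin that takes microtubule ends apart, gave -0.12, the chromosome-bound motor gene *Kif4* -0.10, *Kif20a*, another kinesin of cytokinesis, -0.0035 and *Kif23*, a motor of the central spindle, 0.02.

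The spindle and cytokinesis factors lay between -0.10 and 0.04. *Nusap1*, which binds spindle microtubules, read 2330.0, 1887.9, 1637.5 and 1813.3 in Cre+ brain, against 1905.0, 2019.8, 1867.7 and 1983.8 in controls. *Prc1*, which bundles the microtubules of the central spindle, read 1389.9, 1112.6, 1019.5 and 1268.4, against 1181.1, 1396.9, 1335.8 and 1189.0 in controls. In both genes the genotypes overlapped, with log2 fold changes of -0.03 and -0.10. *Ect2*, which activates RhoA at the division site, moved least with the rest. It read 1006.9, 1059.4, 781.2 and 958.9 in Cre+ brain, against 1026.6, 830.4, 942.2 and 1076.2 in controls, and only its low value on Cre+ replicate 3 followed the common order. *Tpx2*, the activator of Aurora A, gave -0.01 and *Anln*, the anillin of the contractile ring, 0.04.

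Among the condensin genes *Ncapg* had the lowest fold change of the 37, and the other 3 lay between -0.03 and 0.03. *Ncapg*, a subunit of condensin I, read 569.8, 478.2, 376.3 and 449.4 in Cre+ brain, against 481.2, 580.8, 595.5 and 530.0 in controls. Replicates 2 to 4 of Cre+ brain lay below every control and replicate 1 lay within the controls, for a log2 fold change of -0.23 (limma, SE 0.13, 95% interval -0.52 to 0.07, unadjusted p = 0.113 and adjusted p = 0.80). *Smc4*, 1 of the 2 ATPases of the ring, read 3977.0, 3442.0, 2806.6 and 3514.9, against 3314.0, 3649.6, 3681.2 and 3247.1 in controls. Its partner *Smc2* gave -0.03, *Smc4* -0.02 and *Ncapd2*, another subunit of condensin I, 0.03.

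Cre+ replicates 1 and 3 decided the direction of many of these values. They held the highest and lowest values of these genes, so a shift on leaving either out was built in. The counts below describe that dependence and are no test. Without replicate 1, 37 of 37 genes lay below 0, against 50.4% of all genes, where 25 of 37 did on all arrays, against 50.5%. The median log2 fold change was then -0.09, and 3 genes reached an unadjusted p under 0.05 as lower, against 3.0% of all genes: *Ncapg* (-0.32), *Kif4* (-0.22) and *Cenpa* (-0.21). Without Cre+ replicate 3 the count below 0 was 11 of 37, against 51.2% of all genes, and the median was 0.04. None of the genes then reached an unadjusted p under 0.05 (limma, smallest 0.16, for *Kif23*). Replicates 3 and 4 alone, set against all controls, gave a median of -0.127 and 4 genes at an unadjusted p under 0.05 as lower, against 2.51% of all genes. These were *Ncapg* (-0.40), *Kif11* (-0.33), *Cenpa* (-0.28) and *Kif4* (-0.23). In each of these comparisons 0 of 37 genes were called after adjustment over all probe sets.

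For 26 of the genes the array carries more than 1 probe set, 84 in all. The 47 further probe sets had a median log2 fold change of -0.035 and ran from -0.48 to 0.13, with 35 below 0 and 0 called. When the less specific probe sets were left out, *Bub1b* gave -0.01 and *Cdc20* -0.03, both below 0 as well, and 28 of 36 genes lay below 0, against 50.9% of all genes. One of the further sets reached an unadjusted p under 0.05, a dim set of *Cenpa* with a log2 fold change of -0.48 at a mean intensity of 10.6, below the added constant. Another set of *Cenpa* gave 0.12 at a mean of 286, where its brightest set gave -0.13. The other set of *Ncapg* gave -0.04 (brightest -0.23), and those of *Kif11* gave -0.01 and 0.06 (brightest -0.18). The other set of *Ccna2* gave 0.02 (brightest -0.08), and those of *Foxm1* gave -0.09 to -0.0027 (brightest 0.06). Those of *Kif2c* gave -0.13 to -0.02 (brightest -0.12). The low values of *Ncapg* and *Kif11* and the direction of *Ccna2* and *Foxm1* thus depend on the probe set, and *Kif4* has only 1.

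Replicates 1 and 2 of Cre+ also stood apart over the whole array. On the first principal component, which holds 34.2% of the variance, they lay at -27.1 and -32.8, against 1.5 to 18.3 for the other 6 arrays, and the collagen gene *Col3a1* read 4864.4 and 4571.2 on them, against 114.7 to 555.0 on the other 6. The brightest probe set of *Rest* read 163.1, 216.7, 84.4 and 133.7 in Cre+ brain, against 170.1, 271.8, 211.1 and 198.3 in controls. Replicates 1, 3 and 4 of Cre+ lay below every control, and replicate 2 lay within the controls. The log2 fold change of *Rest* was -0.51 (limma, SE 0.25, adjusted p = 0.758), lower but not called. *Xist*, which silences an X chromosome in females, read 14.5 to 23.5 on the 4 Cre+ arrays, against 57.8, 7875.1, 8247.1 and 36.8 on the controls. Sex signal therefore differed between the genotypes, and set against only the 2 controls of male signal, the mitosis genes had a median of 0.048, with 12 of 37 below 0, against 49.3% of all genes. *Kif4*, named above among the lower genes, lies on the X chromosome. It read 403.2, 418.4, 459.9 and 403.7 on control replicates 1 to 4.

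Further mitosis genes and replication genes had the same highest and lowest arrays. Of 52 further mitosis genes measured, 20 lay above 0 and 32 below, with a median of -0.021 and 0 called. Their mean was 0.18, -0.05 and -0.17 on Cre+ replicates 1 to 3 and near 0 on replicate 4, against -0.04 to 0.03 on the controls. *Cenpi*, a kinetochore gene, had the lowest fold change of that list, with 254.1, 193.5, 179.6 and 214.7 in Cre+ brain, against 281.6, 310.0, 290.5 and 248.6 in controls, which did not pass after adjustment (limma, log2 fold change -0.41, SE 0.11, adjusted p = 0.507). *Gtse1*, a microtubule-binding gene of G2 and M phase, had the highest, with 278.0, 235.3, 246.3 and 238.0 in Cre+ brain, against 212.1, 141.3, 185.5 and 236.8 in controls, and did not pass either (limma, log2 fold change 0.36, SE 0.14, adjusted p = 0.693). In both genes the genotypes overlapped. *Aspm*, a spindle pole gene of neural progenitors, gave -0.10. The 31 measured DNA replication genes had 20 above 0 and 11 below, a median of 0.032 and 0 called, with means of 0.23, -0.03, -0.14 and 0.05 on the Cre+ arrays, against -0.07 to 0.05 on the controls. Of 8 subunits of the DREAM and MuvB complexes, which repress or activate cell cycle genes by phase, 6 lay below 0, with a median of -0.063 and 0 called.

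One gene of cell cycle control passed the test. Of 23 G1 cyclins, their kinases and inhibitors, 1 was called higher, against 0.214% of all genes, and 0 lower, against 0.011%. The gene called was *Cdkn1a*, which encodes the inhibitor p21. It read 446.4, 439.1, 383.5 and 356.1 in Cre+ brain, against 175.9, 145.2, 168.3 and 168.2 in controls. Unlike the mitosis genes, the genotypes did not overlap, and the log2 fold change was 1.22 (limma, SE 0.10, adjusted p = 0.0031). *E2f3* was also higher without overlap, narrowly, with 656.1 as its lowest Cre+ value and 655.5 as its highest control. It was not called (limma, log2 fold change 0.25, SE 0.13, adjusted p = 0.771). That made 2 of 23 genes without overlap, against 2.44% of all genes as higher. The median of the 23 genes was -0.019.

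Lists of cell type and regional markers moved between the arrays as well. Apical progenitor markers, 15 genes, had means of 0.11, -0.14, -0.07 and -0.02 on Cre+ replicates 1 to 4, against -0.03 to 0.05 on controls, and 0 were called. Early neuron markers, 12 genes, ran the other way on the extreme arrays, with -0.25 on replicate 1 and 0.07 on replicate 3, against -0.05 to 0.08 on controls, and 0 were called. Hindbrain Hox genes, 8 measured, had means of -0.64, 0.58, 1.83 and 1.15, against 0.79, -0.39, -0.44 and 0.04 on the controls. *Hoxb3*, a gene of hindbrain and spinal cord, read 1.8 on Cre+ replicate 1 and 746.0 on replicate 3. The arrays with the highest and the lowest mitosis values were thus those with the lowest and the highest Hox values. Erythroid markers, 5 measured, were high on replicate 1 and low on replicate 3 (0.84 and -0.44, against -0.27 to 0.18 on controls). Mesenchyme markers, 11 measured, were high on replicates 1 and 2 (2.37 and 3.43, against -0.41 to 0.50 on controls), of which only the first had high mitosis values. Microglia and macrophage markers were higher on all 4 Cre+ arrays (1.08 to 1.24, against -0.11 to 0.10), with 8 of 12 called. The part of tissue composition, region and sex in the values of the mitosis genes was not tested.

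**Figure D3:**
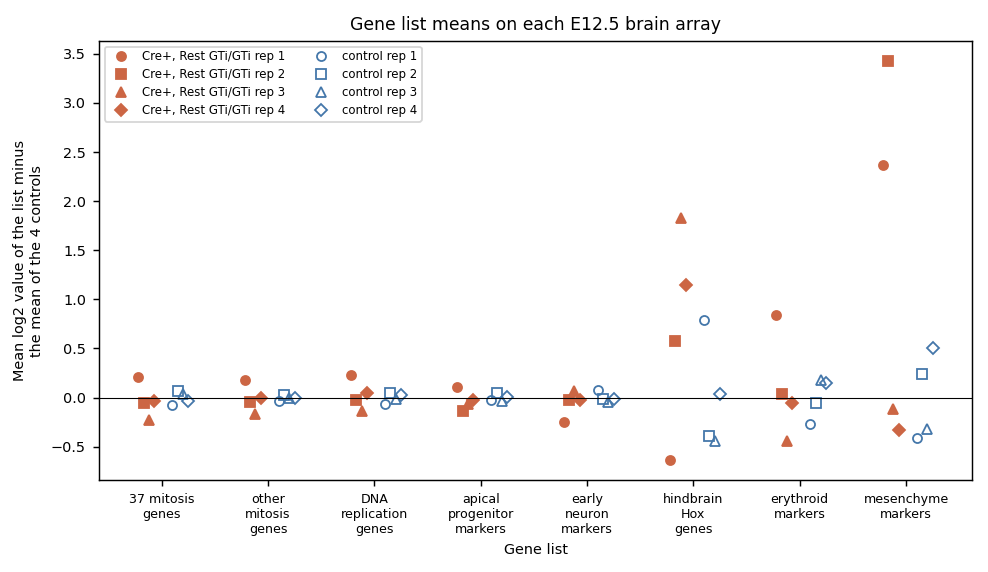
Mean log2 value of each gene list on each array, minus the mean of the 4 controls, with filled orange symbols for Cre+ and open blue symbols for control replicates 1 to 4. The 37 mitosis genes, further mitosis genes and replication genes show the same high replicate 1 and low replicate 3 of Cre+ (0.21 and -0.23 for the 37 genes), and the Hox genes show the opposite order (-0.64 and 1.83).

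Among 9603 genes with a mean intensity of at least 100, those outside the lists whose log2 values over the 8 arrays were most like the mean of the mitosis genes were *Jam3* (r = 0.99), *Knstrn* (r = 0.98), *Lpar6* (r = 0.98), *Dnajb1* (r = 0.98) and *Rpa2* (r = 0.97). The most opposite were *Lrrn3* (r = -0.99), *Ntm* (r = -0.98), *Brinp1* (r = -0.98), *Slc8a1* (r = -0.98) and *Fam117b* (r = -0.98). These are the extremes of many genes ranked over 8 shared RNA samples, given as a description.

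Because the genes moved together, their promoters were set side by side. In the cell cycle field, the DREAM and MuvB complexes are known to bind the cell cycle genes homology region (CHR), TTTGAA, which often lies a short way downstream of CCAAT boxes bound by NF-Y. Promoter windows of RefSeq (build GRCm38.p6, 250 bases before and 50 after the gene start) were matched for 30 of the 37 genes, and both motifs were searched on both strands. TTTGAA occurred in 24 of 30 windows (80%), against 20.2% of 27025 genes and 57.8% of further mitosis genes. CCAAT occurred in 24 of 30 (80%), against 41.1% of all genes, 62.2% of further mitosis genes and 65.4% of replication genes. Both occurred in 22 of 30 (73.3%), against 8.0% of all genes, 37.8% of 45 further mitosis genes and 11.5% of 26 replication genes. Replication genes, which moved with the mitosis genes between arrays, held TTTGAA in 15.4%. The median log2 fold change was -0.012 for the 22 mitosis genes with both motifs and -0.041 for the 8 without both. A match of these letters is a description of the window and no sign of binding.

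In 8 of the 30 windows (26.7%, against 3.09% of all genes) TTTGAA lay within the last 50 bases before the start: *Cdc20*, *Cdk1*, *Espl1*, *Kif11*, *Ncapg*, *Prc1*, *Top2a* and *Ube2c*. The 100 bases before the start are shown for 6 of them, which take in the genes with the lowest (*Ncapg*) and highest (*Espl1*) fold change and a gene each of mitotic entry, chromosome untangling, spindle and exit, from 5′ to 3′ on the strand of the gene, with both motifs in capitals. The hexamer reads TTCAAA where it lies on the other strand, and the box then reads ATTGG.
Cdk1 (chr10:69352913-69353012, minus strand): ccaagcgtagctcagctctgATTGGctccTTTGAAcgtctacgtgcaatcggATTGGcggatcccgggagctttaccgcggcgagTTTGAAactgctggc
Top2a (chr11:99024190-99024289, minus strand): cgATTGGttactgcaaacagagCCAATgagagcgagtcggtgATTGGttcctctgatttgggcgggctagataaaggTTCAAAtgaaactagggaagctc
Kif11 (chr19:37376282-37376381, plus strand): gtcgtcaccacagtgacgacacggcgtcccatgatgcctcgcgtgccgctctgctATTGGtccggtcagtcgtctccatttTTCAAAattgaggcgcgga
Ncapg (chr5:45669825-45669924, plus strand): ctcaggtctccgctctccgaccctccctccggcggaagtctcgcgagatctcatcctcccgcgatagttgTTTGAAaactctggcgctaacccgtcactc
Espl1 (chr15:102296193-102296292, plus strand): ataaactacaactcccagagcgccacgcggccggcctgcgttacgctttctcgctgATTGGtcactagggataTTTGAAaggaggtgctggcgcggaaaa
Ube2c (chr2:164769829-164769928, plus strand): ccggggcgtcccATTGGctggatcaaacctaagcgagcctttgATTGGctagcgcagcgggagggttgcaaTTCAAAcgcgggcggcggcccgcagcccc

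All 6 were taken from the 8 genes with a hexamer in the last 50 bases, so its place near the start was given by that choice. *Cdk1*, which followed the common order of arrays, and *Kif11*, which departed from it, each hold a CCAAT box upstream of the hexamer, at -48 and -45 from the start, with the hexamer at -15 and -19. *Ncapg* holds no CCAAT in the stretch shown, and its only one in the window lies at -176. *Ncapg* and *Espl1*, at the opposite ends of the fold changes, are both among those 8, and a link of hexamer and fold change was not tested.

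**Figure D4:**
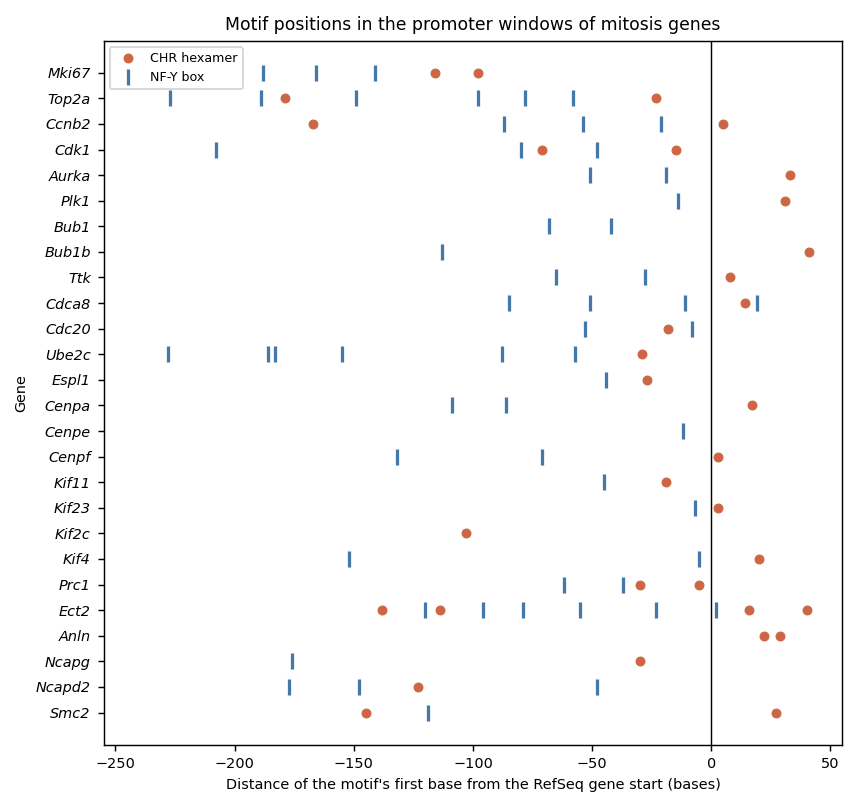
Positions of the CHR hexamer (orange dots) and the NF-Y box (blue bars) on either strand in the RefSeq promoter windows of the mitosis genes that hold at least 1 of them, by distance of the first base from the gene start (0). *Prc1* has 2 starts, and positions from both are drawn. In 8 genes a hexamer lies in the last 50 bases before a start.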

How the data were processed

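RNA of E12.5 mouse brain was hybridised to 1-colour Affymetrix arrays, 4 *Cre+, Rest GTi/GTi* and 4 control. The authors' methods and the labels name RMA and a log2 transformation, but the deposited values are intensity values on a linear scale with unequal array medians (40.9 to 68), and the step that made them is not stated. The spread between arrays, with 4 a genotype, limits the precision. The 64 Affymetrix controls were left out of 45101 probe sets. Values were quantile normalized, 16 was added, log2 was taken, and limma 3.58.1 (lmFit, eBayes; R 4.3.3) was fitted over 45037 probe sets, with Benjamini-Hochberg adjustment over all of them and calls at 0.05. As 30.6% of the probe sets averaged under 16, changes in dim sets are understated. Fold changes refer to intensity plus 16. Annotation gave 34945 probe sets a single gene, 932 several genes and 9160 no gene. Each gene was read on its brightest probe set. Intensities of different probe sets are not comparable with each other.

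Members and lists were chosen with earlier results of these data known. Per-array values are given for mitosis genes of the 37 at an unadjusted p under 0.05 or without overlap, the brightest gene and the gene with the largest absolute fold change of each role, and *Mki67*, *Cdk1* and *Top2a*. *Foxm1* and *Ect2* were added after their values were seen. Residuals of arrays with the same replicate number correlated at -0.282 to -0.017, so the numbers did not pair the arrays. Alternatives were other scaling, constants, tests, a filter on dim sets, choices of probe set, a replicate block, sex signal, and leaving out arrays. Sorted progenitors are not analysed here.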

Additional observations from a re-analysis of the deposited data

Results flagged for a closer look

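In each genotype of 4 arrays, the highest and lowest values of the 37 mitosis genes were set against the rest of the group by Dixon's ratio at its 95% level. Of 74 groups tested 2 passed it, where chance flags about 1 in 20. *Kif4* read 501.7 on *Cre+, Rest GTi/GTi* replicate 1, with the next array of that genotype at 368.1 (ratio 0.849). *Incenp* read 2832.7 on control replicate 2, with the next control at 2563.5 (ratio 0.837).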

How the results depend on the processing

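Under all 23 alternatives 0 of 37 mitosis genes were called in either direction, with a smallest adjusted p of 0.646. The median log2 fold change moved by less than 0.135, the within-genotype SD of the 37-gene mean, pooled over both genotypes and widened by Cre+ replicates 1 and 3. It was -0.093 with a common array median (-0.043 over all genes), 0.024 without scaling (0.051 over all genes), 0.044 once the Y-linked *Eif2s3y* was a covariate, and -0.127 from replicates 3 and 4 of *Cre+, Rest GTi/GTi* alone. Leaving out 1 array gave -0.09 (without *Cre+, Rest GTi/GTi* replicate 1) to 0.044 (without replicate 3). With 1 array of each genotype per replicate number, the replicate block could not move a fold change (median -0.012), and it changed no call. The count of genes below 0 did depend on the setting. It was 25 as reported (50.5% of all genes), 35 with a common array median (63.0%), 36 from replicates 3 and 4 of *Cre+, Rest GTi/GTi* alone (49.5%), 12 without scaling (33.0%), 12 once *Eif2s3y* was a covariate (49.1%), 12 against the controls of male signal (49.3%), and 11 to 37 when 1 array was left out. The cause was not tested. Of 850 single gene values under the alternatives, all lay between -0.396 and 0.225. Of these, 1 (*Cenpa*, -0.279 from replicates 3 and 4 alone) moved by at least that gene's own within-genotype SD, pooled over both genotypes. The other tests, the filter on dim sets and the replicate block leave a fold change as it is, so part of the 850 could not move. With 4 arrays a genotype and a median standard error of 0.105, small changes in the share of dividing cells could not be seen, and the intensities give no counts from which to set a limit of detection.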
